A study of Mus musculus with 8 samples.

Results

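The interferon response genes examined here are 37 mouse genes known to be induced by type I or type II interferon, followed in the liver of Pemt-/- and Pemt+/+ mice during the first 4 weeks of a high fat-high sucrose (HFHS) diet. Every probe set of the array that was annotated to 1 of these genes and to no other gene was taken. This gave 59 probe sets for 35 genes, out of 45037 probe sets in all. Ifi44 was not matched to a probe set and Isg15 shared its probe set with another gene, so these 2 genes were not analysed here. Of the 59 probe sets, 55 passed the filter on low values, and these included the brightest probe set of each of the 35 genes. Each gene is given below by that probe set.

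Pemt-/- mice lack phosphatidylethanolamine N-methyltransferase, which makes phosphatidylcholine from phosphatidylethanolamine, and Pemt+/+ mice carry both intact copies. The 8 Affymetrix arrays held total RNA of whole liver, taken after 1, 2, 3 or 4 weeks of HFHS feeding with a single array for each genotype and week, and no liver from standard chow. The methods name male animals, with 4 mice of each genotype for this feeding series, and neither they nor the labels say how these were divided over the arrays or how old they were. With the week in the model, the p-values of the genotype comparisons therefore measure how the difference between the genotypes varied over the weeks. Those of the change within 1 genotype rest on the spread between arrays of weeks 2 to 4. None measures the spread between mice of the same genotype and week.

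The authors had scaled all arrays to the same trimmed mean intensity, and precision is limited by their number. Pemt itself lay between 201 and 255 on the Pemt-/- arrays and between 4989 and 6045 on the Pemt+/+ arrays, so no array went against its label. Of the cell type markers examined, those of hepatocytes had the highest summed intensity in both genotypes.

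Interferons are secreted proteins that warn tissue of infection or damage. Type I interferons act through the receptor Ifnar1 and Ifnar2, and the kinases Jak1 and Tyk2 then activate Stat2, which joins Irf9 in a complex that binds the interferon-stimulated response element of target genes. Interferon gamma, the type II interferon made mainly by T cells and natural killer cells, acts through Ifngr1 and Ifngr2 and reaches its target genes through the gamma-activated site. The induced genes encode sensors of viral RNA, transcription factors that amplify the response, proteins that block viral replication, GTPases that attack intracellular microbes, and the machinery of antigen presentation. Hepatocytes, Kupffer cells and infiltrating leukocytes can all respond.

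The binding motifs of these pathways were looked up in the promoters of the genes, as a description. The genes were listed because interferon is known to induce them, so a high share with these motifs was likely from the start. RefSeq promoter windows (GRCm38.p6) of 300 bases, 250 before and 50 after the start of transcription, were held for 29 of the 37 genes. The response element was searched on both strands as GAAA, 2 bases of any kind and GAAA, and was present in 16 of the 29 genes (55.2%), against 1079 of 27025 genes with a window (3.99%). The gamma-activated site, searched as TTCNNNGAA, which reads the same on both strands and can share letters with the response element, was present in 11 of the 29 genes (37.9%), against 2582 of 27025 genes (9.55%). A match is a description of letters and not evidence of a bound site. The sites below are examples from genes with a match, of which Gbp2, Gbp3 and Rsad2 were higher in Pemt-/- and Ifit1, Ifit3 and Bst2 did not pass the genotype test. Irf8, Ifit2, Tap1 and Xaf1, which were also higher, had no match to the response element. Oasl1, Oasl2 and Ifi35 had none either, and no window was held for Ifi27l2a, Rtp4 and Usp18. Capitals mark the response element, or overlapping copies of it, on the strand of the gene, where it reads as TTTC, 2 bases and TTTC when it lies in the opposite direction.
Gbp2 (chr3:142620589-142620628, plus strand): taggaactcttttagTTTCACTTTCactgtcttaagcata
Gbp3 (chr3:142559984-142560029, plus strand): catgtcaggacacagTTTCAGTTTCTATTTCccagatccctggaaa
Rsad2 (chr12:26456548-26456587, minus strand): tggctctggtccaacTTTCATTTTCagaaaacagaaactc
Ifit1 (chr19:34640789-34640828, plus strand): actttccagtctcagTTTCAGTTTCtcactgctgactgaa
Ifit3 (chr19:34583392-34583431, plus strand): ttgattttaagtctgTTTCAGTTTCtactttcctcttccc
Bst2 (chr8:71537572-71537617, minus strand): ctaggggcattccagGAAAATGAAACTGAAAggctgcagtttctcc
The matches lay 49, 29, 110, 75, 112 and 114 bases before the start of transcription, in the order printed. The Gbp3 and Bst2 windows each held 2 overlapping copies, and Ifit1 and Ifit3 each held 1 more match nearby. Of the genes that were both measured and held a window, the element was present in 6 of 10 that were higher in Pemt-/- and in 9 of 17 that did not pass the test.

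The first comparison asked which of these genes differed between Pemt-/- and Pemt+/+ liver over the 4 weeks. Of the 35 genes, 13 were higher in Pemt-/- mice, 1 was lower and 21 did not pass the test (limma, adjusted p under 0.05 over 27022 probe sets). The higher genes were Ifi27l2a, Oas1a, Irf8, Gbp2, Usp18, Gbp3, Rsad2, Xaf1, Trim30a, Ifit2, Ddx58, Rtp4 and Tap1, and the lower gene was Iigp1. Among all 12949 genes tested, 12.6% were higher and 7.51% were lower. Counted over probe sets, 19 of the 55 tested were higher and 2 were lower, against 10.3% and 5.86% of all probe sets tested. Without the adjustment, 19 of the 35 genes had p under 0.05, against 36.1% of all genes tested.

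The median difference of the 35 genes, Pemt-/- minus Pemt+/+, was 0.39 on the log2(intensity + 16) scale, against 0.02 for all genes tested. A difference of 1 on this scale is a 2-fold change of intensity plus 16, and the scale understates the change of dim probe sets. When each array was centred on the median of its tested probe sets, the median difference of all probe sets tested moved from 0.02 to -0.14 and that of the 35 genes became 0.23, with 10 genes higher and 1 lower. This centring also moved the share of higher probe sets among all calls from 63.8% to 37.6%, while the share of higher genes among the interferon genes called was 92.9% as deposited and 90.9% after centring. In 13 genes every Pemt-/- array was above every Pemt+/+ array, against 15.2% of all genes, and in 1 gene every Pemt-/- array was below, against 10.4%. In bulk liver, a change in the number of cells of a type cannot be told apart from a change in RNA per cell. All 6 monocyte and macrophage markers tested and the leukocyte marker Ptprc were higher in Pemt-/- as well, as given with their values after the interferon genes.

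**Figure D1:**
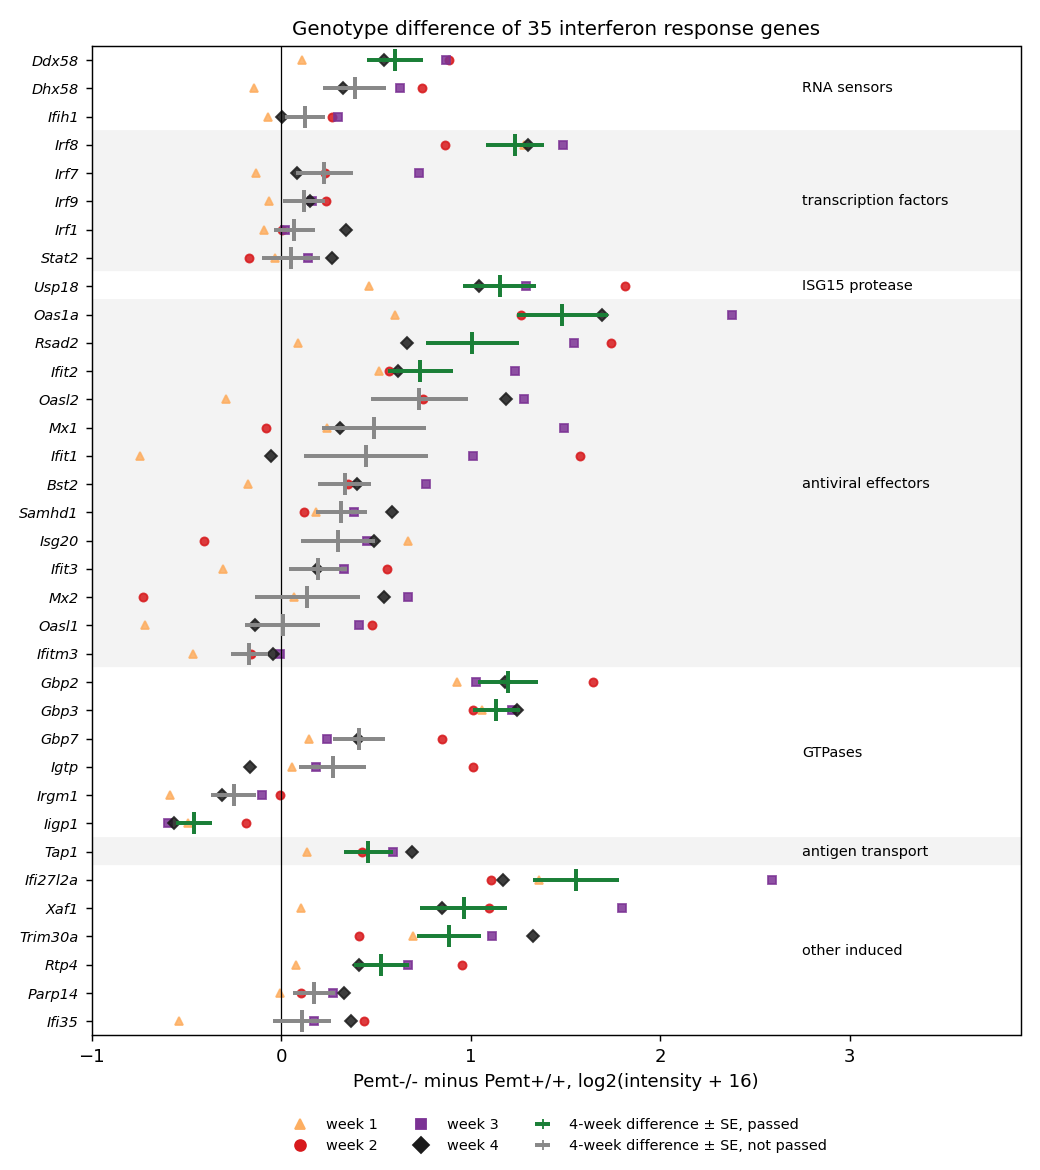
Genotype difference of the 35 interferon response genes, grouped by role from top to bottom. The x axis is Pemt-/- minus Pemt+/+ on the log2(intensity + 16) scale; small symbols are the 4 single weeks, and the upright tick with its bar is the limma difference over 4 weeks ± SE, green where the gene passed the test. The 13 higher genes occur in every role group, Iigp1 is the only green tick below 0, and the week 1 triangle lies to the left of the mean of weeks 2 to 4 in 33 of the 35 genes.

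Of the cytosolic sensors of viral RNA, only Ddx58, which encodes the helicase RIG-I, passed the test. Its intensity was 981, 1347, 1266 and 1162 in Pemt-/- at weeks 1 to 4 and 909, 722, 686 and 792 in Pemt+/+. The groups did not overlap, but at week 1 they were separated by less than the spread among the Pemt+/+ arrays. The difference was 0.60 ± 0.15 SE (adjusted p = 0.0262, limma), and 2 dimmer Ddx58 probe sets at log2 differences of 0.12 and -0.06 did not pass. The call was lost without week 2, 3 or 4 (adjusted p = 0.0695, 0.129 and 0.0793). Ifih1, which encodes the sensor MDA5, differed by 0.13 and Dhx58, the regulatory member of the helicase family, by 0.39, both without passing.

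Among the transcription factors, Irf8, which drives monocyte and dendritic cell development and is induced by interferon gamma, was the only gene to pass. Irf8 measured 402, 339.5, 546 and 592 in Pemt-/- livers at weeks 1 to 4, against 156, 179.6, 185 and 230.4 in Pemt+/+ livers. Every Pemt-/- array was above every Pemt+/+ array, and the ratio was 2.58 already at week 1. The rise was 2.35-fold (1.23 ± 0.15 SE, adjusted p = 0.00177, limma), with the other probe set also higher (1.70, adjusted p = 0.00501).

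The factors at the core of the type I response did not pass the test. Irf7, the amplifier of type I interferon production, measured 755, 1005, 1131 and 868 in Pemt-/- and 829, 853, 677 and 819 in Pemt+/+, with overlapping groups (0.23 ± 0.15 SE, adjusted p = 0.343, limma). Irf9, the DNA-binding partner of Stat2, measured 791, 910.2, 750.0 and 736 in Pemt-/- and 828, 771, 667 and 661 in Pemt+/+ (0.12 ± 0.11 SE, adjusted p = 0.505). Stat2 measured 238, 222, 239 and 202 in Pemt-/- and 244, 251, 215 and 166 in Pemt+/+ (0.05 ± 0.15 SE, adjusted p = 0.854). In Irf9 and Stat2 the groups overlapped, and the small positive values turned to -0.04 and -0.11 after median centring. Irf1, an early target of interferon gamma, differed by 0.07 and likewise turned, to -0.09.

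Usp18, the protease that removes ISG15 from proteins and restrains the type I receptor, was higher in every week. Its arrays read 1159, 2172, 1844 and 1397 in Pemt-/- and 836, 606, 744 and 669 in Pemt+/+. The lowest Pemt-/- array, week 1, was above the highest Pemt+/+ array, which was also week 1. The difference was 2.23-fold (1.15 ± 0.19 SE, adjusted p = 0.00580, limma), and it still passed when any 1 week was left out.

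The antiviral effectors were the largest group, with 3 of 13 genes higher and 10 not passing. Oas1a, an oligoadenylate synthetase that switches on RNA decay, measured 1121, 1486, 1918 and 1790.3 in Pemt-/- and 733, 609, 357 and 544 in Pemt+/+. The Pemt+/+ values were lowest at week 3, where Pemt-/- was highest and the ratio reached 5.38. The rise was 2.80-fold (1.48 ± 0.24 SE, adjusted p = 0.00518, limma).

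Rsad2, which encodes viperin, measured 1672, 4124, 3208 and 1714 in Pemt-/- against 1569, 1224, 1091 and 1078 in Pemt+/+. The 2 genotypes were nearly level at week 1, with a ratio of 1.07, and furthest apart at week 2, with a ratio of 3.37. Over 4 weeks the difference was 1.01 ± 0.24 SE (adjusted p = 0.0252, limma), and the 2 dimmer probe sets also passed (0.88 and 0.90). Without week 2 or 3 the brightest no longer passed (adjusted p = 0.0656 and 0.112).

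Ifit2, which binds viral RNA and blocks its translation, measured 295, 245, 403 and 237 in Pemt-/- and 201, 159.9, 163 and 149 in Pemt+/+. The groups did not overlap and the week 3 array of Pemt-/- stood highest (0.73 ± 0.17 SE, adjusted p = 0.0221, limma). Leaving out week 1, 3 or 4 ended the call (adjusted p = 0.0540, 0.114 and 0.0629).

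Its relatives Ifit1 and Ifit3 had overlapping groups. Ifit1 measured 305, 1149.7, 791 and 411 in Pemt-/- and 521, 375, 384 and 427 in Pemt+/+, so that Pemt-/- held both the lowest array, at week 1, and the highest, at week 2 (0.45 ± 0.33 SE, adjusted p = 0.397, limma). Ifit3 differed by 0.19. Oasl1, an oligoadenylate synthetase-like protein, measured 334, 831, 698 and 478 in Pemt-/- and 558, 592, 521 and 528 in Pemt+/+ (0.01 ± 0.20 SE, adjusted p = 0.984). Its Pemt-/- arrays again surrounded the Pemt+/+ arrays, with weeks 1 and 4 below and weeks 2 and 3 above.

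Oasl2, another oligoadenylate synthetase-like protein, measured 180.1, 258, 284 and 362 in Pemt-/- and 224, 147, 107 and 151 in Pemt+/+. The genotypes overlapped through week 1, where Pemt-/- was lower, and the difference over 4 weeks did not pass (0.73 ± 0.26 SE, adjusted p = 0.0897, limma) but did without week 1 (adjusted p = 0.0216). Bst2, which encodes the virus tether tetherin, measured 7279, 10286, 9307 and 8379.6 in Pemt-/- and 8221, 8048, 5465 and 6344 in Pemt+/+. It too passed without week 1 but not over all weeks (adjusted p = 0.0410 and 0.140, limma).

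None of the other antiviral effectors passed. Mx1 and Mx2, the dynamin-like GTPases that trap viral particles, averaged 135 ± 57.2 and 91.5 ± 28.8 in Pemt-/- and 88.3 ± 20.2 and 79.7 ± 18.3 in Pemt+/+ (SD, n = 4 arrays). Isg20, an RNA exonuclease, differed by 0.30 and Samhd1, which depletes nucleotides, by 0.32, neither passing. Samhd1 had 5 probe sets, of which only the dimmest passed as higher. Ifitm3, which blocks viral entry and was the brightest of the genes, averaged 25224 ± 2833 in Pemt-/- and 28366 ± 3351 in Pemt+/+ and was below the Pemt+/+ level in every week (-0.17 ± 0.10 SE, adjusted p = 0.286, limma). Its sign turned under quantile normalization, to 0.11.

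**Figure D2:**
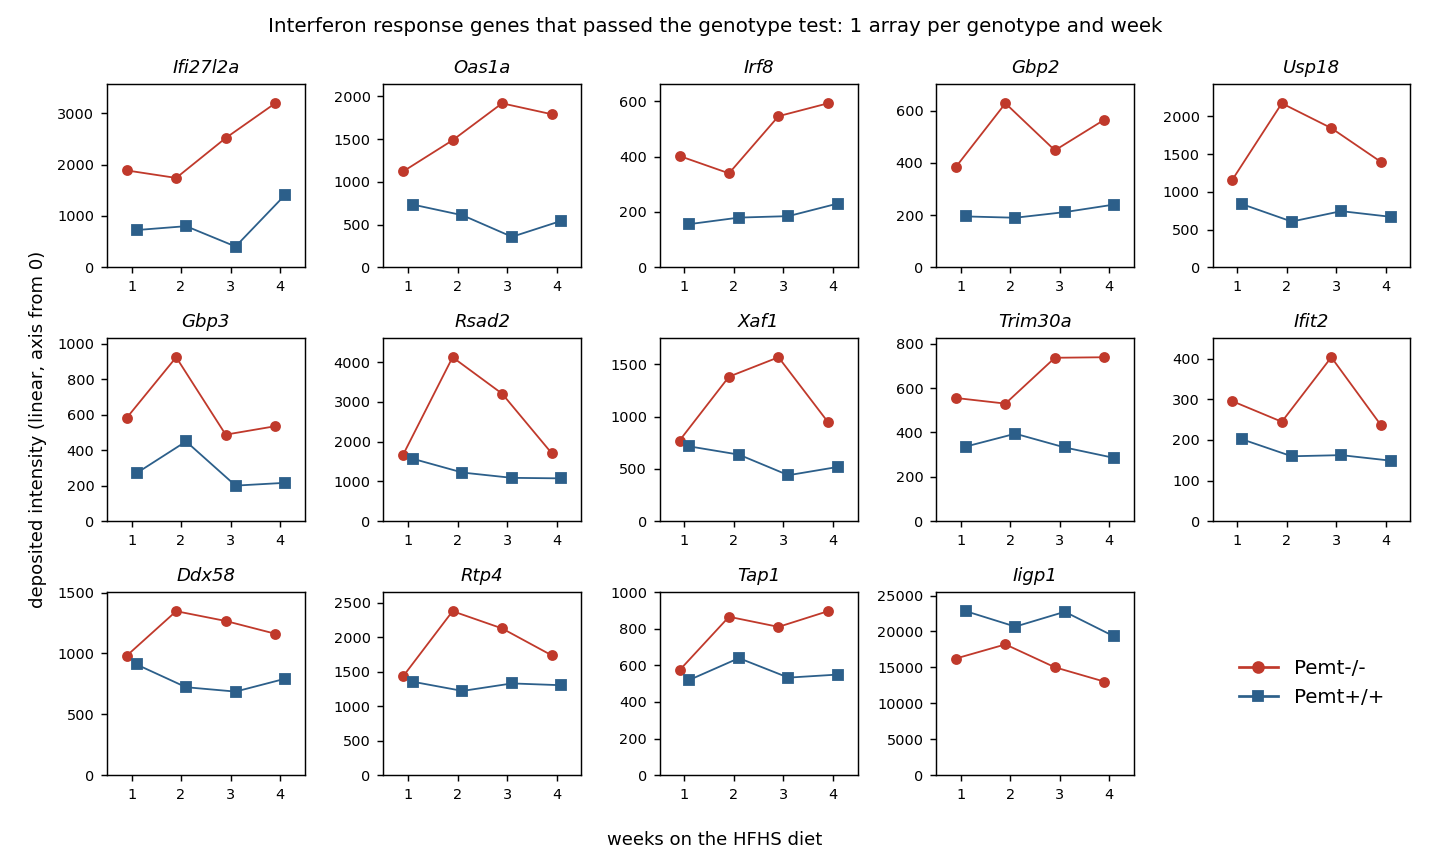
Deposited intensity on each array for the 14 interferon response genes that passed the genotype test, in order of their difference. The x axis is weeks on the HFHS diet, the y axis starts at 0, circles (red) are Pemt-/- and squares (blue) are Pemt+/+, with 1 array per point. In Rsad2, Xaf1, Ddx58 and Rtp4 the genotypes nearly meet at week 1, in Irf8, Gbp3 and Ifi27l2a they are apart from week 1, and Iigp1 alone has Pemt-/- below Pemt+/+.

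Of the 6 interferon-inducible GTPases, 2 guanylate-binding proteins were higher, 1 immunity-related GTPase was lower and 3 genes did not pass. Gbp2, a guanylate-binding protein that coats intracellular microbes, measured 385, 628, 448 and 565 in Pemt-/- and 195, 189.8, 211 and 240.3 in Pemt+/+. The groups did not overlap (2.29-fold, 1.20 ± 0.16 SE, adjusted p = 0.00228, limma), and the other Gbp2 probe set was also higher (0.76, adjusted p = 0.0144). The brightest Gbp2 probe set is of a class that can also detect related transcripts, and the share of other Gbp genes in its signal was not tested.

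Gbp3 measured 583, 925, 488 and 536 in Pemt-/- and 271, 450.1, 201 and 217 in Pemt+/+. Both genotypes were highest at week 2, and the ratio stayed between 2.06 and 2.47 in all 4 weeks (1.13 ± 0.12 SE, adjusted p = 0.00128, limma). Gbp7 had every Pemt-/- array above every Pemt+/+ array but did not pass (0.41 ± 0.14 SE, adjusted p = 0.0749).

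The immunity-related GTPases attack vacuoles that hold parasites. Iigp1, whose array values were added after they were seen, measured 16239.9, 18202, 15018 and 13022 in Pemt-/- against 22828, 20678, 22745 and 19304 in Pemt+/+. All Pemt-/- arrays lay below all Pemt+/+ arrays, a difference of -0.46 ± 0.10 SE (adjusted p = 0.0135, limma), and the other probe set fell by 0.50 (adjusted p = 0.0139). The call was lost without week 1, 3 or 4 (adjusted p = 0.0568, 0.0966 and 0.0729) and under quantile normalization (adjusted p = 0.0707).

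Irgm1, a regulator of this family, measured 1562, 2239, 1997 and 1639.5 in Pemt-/- and 2356, 2248, 2143 and 2036 in Pemt+/+. It was below Pemt+/+ in all 4 weeks, most at week 1, without passing the test (-0.25 ± 0.12 SE, adjusted p = 0.189, limma). Igtp had a ratio of 2.02 at week 2 and ratios from 0.892 to 1.14 in the other weeks (0.27 over 4 weeks, not passing).

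Tap1, the peptide transporter of the antigen presentation pathway, measured 573, 865, 810.0 and 896 in Pemt-/- and 520.4, 639, 533 and 549.6 in Pemt+/+, values also added after they were seen. The groups overlapped, since the Pemt-/- array of week 1 lay below the Pemt+/+ array of week 2. The difference of 0.46 ± 0.13 SE was the smallest of the higher genes (adjusted p = 0.0435, limma), and it was lost without week 2, 3 or 4 (adjusted p = 0.0738, 0.179 and 0.190).

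Of the 6 other induced genes, 4 were higher. Ifi27l2a, a small mitochondrial protein, had the largest difference of the 35 genes. It measured 1887, 1741, 2518 and 3195 in Pemt-/- and 726, 801, 405 and 1409 in Pemt+/+, with no overlap and with the low Pemt+/+ array of week 3 giving a ratio of 6.22. The rise was 2.94-fold (1.56 ± 0.23 SE, adjusted p = 0.00323, limma).

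Xaf1, a pro-apoptotic protein that antagonises the inhibitor XIAP, measured 771, 1383, 1568 and 948 in Pemt-/- and 716, 637, 440.1 and 519 in Pemt+/+. Week 1 was close in both genotypes and ratios were 2.17 and 3.56 at weeks 2 and 3 (0.96 ± 0.23 SE, adjusted p = 0.0236, limma). The dimmer probe set differed by 0.96 without passing (adjusted p = 0.0617). Unlike the brighter, it had its largest ratio at week 1 (4.90, at intensities of 52.9 and 10.8). The call was lost without week 2, 3 or 4 (adjusted p = 0.0588, 0.0875 and 0.0631).

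Trim30a, a ubiquitin ligase that dampens Toll-like receptor signalling, measured 555, 529.9, 737 and 739 in Pemt-/- and 336, 394, 332 and 285 in Pemt+/+. The groups were separate in both of its probe sets (0.89 ± 0.17 SE, adjusted p = 0.00949, and 1.05 for the dimmer, limma), and the call of the brighter was lost without week 3 (adjusted p = 0.0529).

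Rtp4, a chaperone of membrane receptors that is induced by type I interferon, measured 1432, 2377, 2127 and 1738 in Pemt-/- and 1353, 1221, 1329.6 and 1303 in Pemt+/+. The Pemt+/+ values were nearly flat, and those of Pemt-/- were highest at week 2 (0.53 ± 0.14 SE, adjusted p = 0.0386, limma). Its dimmer probe set did not pass (0.02, adjusted p = 0.971, with a ratio of 0.407 at week 1). Leaving out week 2, 3 or 4 ended the call (adjusted p = 0.0954, 0.158 and 0.0932). Parp14, an ADP-ribosyltransferase, and Ifi35 differed by 0.18 and 0.11 without passing.

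Of the 14 genes that passed, 6 kept their call without any 1 week and under every limma setting tried, namely Gbp2, Gbp3, Ifi27l2a, Irf8, Oas1a and Usp18. Of the 21 genes that did not pass, 19 had a positive difference, up to 0.73 for Oasl2, and the exceptions were Ifitm3 and Irgm1.

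The second comparison took the genotypes within each week, as the study did with ratios over 2 and under 0.5. There is 1 array per genotype and week, so these ratios have no replicate and no test. At week 1, 8 of the 59 probe sets had a ratio of 2 or more and 1 had a ratio of 0.5 or less, against 13.3% and 14.2% of all 45037 probe sets. At week 2 the counts were 15 and 2, against 13.4% and 14.9%. Week 3 gave 19 and 3, against 14.4% and 15.9%, and week 4 gave 14 and 0, against 15.9% and 14.6%. The counts include 4 probe sets below the filter on low values, 3 of Tap1 with intensities between 1.48 and 48.4 and 1 of Dhx58 that was also dim. These 4 held all 3 low ratios of week 3 and 1 of those of week 2, as well as 1, 2, 0 and 2 of the high ratios in weeks 1 to 4. At week 1 the share of these probe sets at 2 or more was thus near that of the whole array, and in weeks 2 to 4 it was above it. The 2 shares are of unlike sets, however, since 55 of the 59 probe sets passed the filter, against 27022 of the 45037. The share among probe sets that passed the filter was not counted.

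By gene, 3 of 35 had a ratio of 2 or more at week 1, 9 at week 2, 13 at week 3 and 8 at week 4, and no gene had a ratio of 0.5 or less in any week. The 3 genes of week 1 were Ifi27l2a (2.60), Irf8 (2.58) and Gbp3 (2.15). The lowest ratios of week 1 were those of Ifit1 (0.585), Oasl1 (0.597) and Irgm1 (0.663). At week 2 the highest ratios belonged to Usp18 (3.59), Rsad2 (3.37), Gbp2 (3.31) and Ifit1 (3.07). Genes with a ratio above 1 numbered 19 of 35 at week 1, 28 at week 2, 32 at week 3 and 29 at week 4. For these counts by gene, the shares of all genes tested were not counted. The median log2 difference of the 35 genes was 0.07, 0.48, 0.67 and 0.40 in weeks 1, 2, 3 and 4, while that of all genes tested stayed between 0.01 and 0.03.

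**Figure D3:**
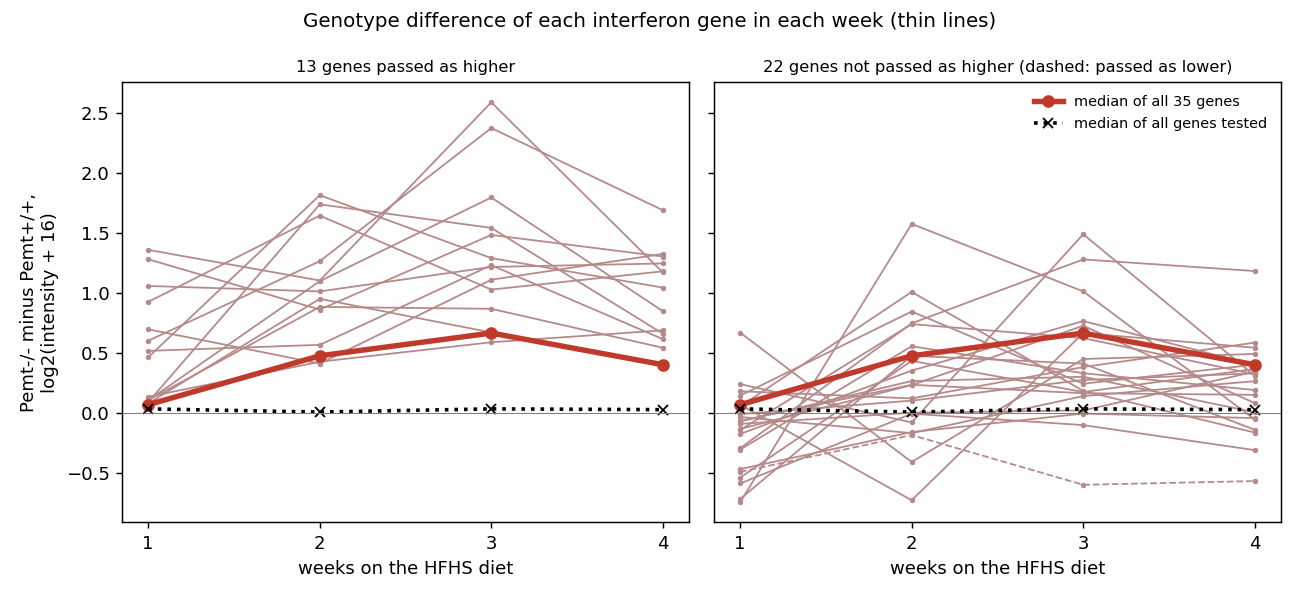
Genotype difference of each interferon response gene in each week, Pemt-/- minus Pemt+/+ on the log2(intensity + 16) scale, with 1 thin line per gene. Genes that passed as higher are on the left and all others on the right, the thick red line is the median of all 35 genes, and the dotted black line is the median of all genes tested. The red line is near the dotted line at week 1 (0.07 against 0.03) and above it at weeks 2, 3 and 4.

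The third comparison asked whether the genotype difference in weeks 2 to 4 was larger than that in week 1. In 33 of the 35 genes the mean difference of weeks 2 to 4 exceeded that of week 1, against 51.0% of all genes tested, and the exceptions were Irf8 and Isg20. The median excess was 0.36, against 0.01 over all genes tested. No gene passed the adjusted test, in this list or among all 27022 probe sets, of which 1300 had an unadjusted p under 0.05 (limma). The smallest adjusted p of the 35 genes was 0.955. At an unadjusted p under 0.05, 11 of the 35 genes had a larger difference in weeks 2 to 4 and none a smaller one, against 2.67% of all genes with a larger difference. They were Ddx58, Usp18, Oas1a, Oasl1, Oasl2, Ifit1, Ifit3, Rsad2, Bst2, Ifi35 and Xaf1. The fit rests on 2 residual degrees of freedom and on 1 array per genotype at week 1, which was assumed to vary like the others.

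The smallest of these p-values was that of Ifi35, a leucine zipper protein of the response. Its brightest probe set, like that of Gbp2, is of a class that can also detect other transcripts. The share of other transcripts in the Ifi35 signal was not tested. Ifi35 measured 3773, 7879, 6305 and 6493 in Pemt-/- and 5489.5, 5827, 5583 and 5031 in Pemt+/+, so that Pemt-/- was below Pemt+/+ at week 1 and above it later. The week difference was 0.86 ± 0.20 SE (95% interval 0.38 to 1.35, unadjusted p = 0.00419, limma over all genes), and that of its 2 dimmer probe sets was 0.32 and 0.62. For Oasl2 it was 1.36 ± 0.39 SE (unadjusted p = 0.0105, limma), for Bst2 0.68 ± 0.23 SE (unadjusted p = 0.0230) and for Xaf1 1.14 ± 0.39 SE (unadjusted p = 0.0230). The dimmer Xaf1 probe set went the other way, at -0.54. Ifit1 had the largest value of the list, 1.59 ± 0.59 SE (95% interval 0.19 to 2.99). For Irf8 and Gbp3, the genes apart from week 1 on, the values were -0.06 and 0.10, with 95% intervals of -0.93 to 0.80 and -0.58 to 0.78.

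The 2 genotypes were then taken separately, weeks 2 to 4 against week 1. In Pemt-/- mice 29 of the 35 genes were higher in weeks 2 to 4 than in week 1, and in Pemt+/+ mice 8 were. The shares of all genes were not counted, but the median change of all probe sets tested was -0.03 in Pemt-/- and -0.02 in Pemt+/+. No interferon gene passed the adjusted test in either genotype (limma), and of all 27022 probe sets 0 passed in Pemt-/- and 2 in Pemt+/+, with 1974 and 1331 at an unadjusted p under 0.05. At an unadjusted p under 0.05, 9 genes were higher in Pemt-/- mice, against 4.32% of all genes, namely Dhx58, Usp18, Oasl1, Oasl2, Ifit1, Tap1, Ifi35, Xaf1 and Rtp4. In Pemt+/+ mice 1 gene, Oasl2, was lower at that level, against 1.86% of all genes. Ifit1 changed by 1.20 in Pemt-/- (unadjusted p = 0.0237, limma) and by -0.39 in Pemt+/+ (unadjusted p = 0.401). Ifi35 changed by 0.86 in Pemt-/- (unadjusted p = 0.000543, limma) and by -0.01 in Pemt+/+.

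**Figure D4:**
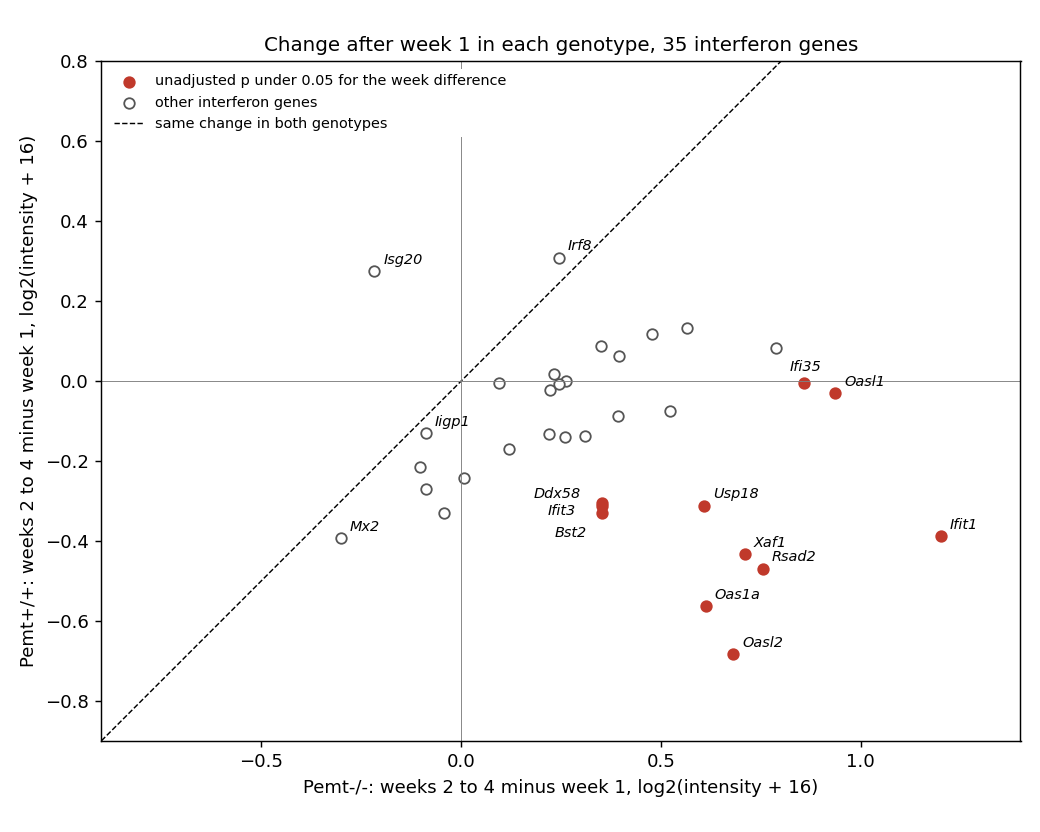
Change after week 1, weeks 2 to 4 minus week 1 on the log2(intensity + 16) scale, for the 35 interferon response genes, with Pemt-/- on the x axis and Pemt+/+ on the y axis. Filled circles have an unadjusted p under 0.05 for the difference between the genotypes, and the dashed line marks equal change. All but Irf8 and Isg20 lie below the dashed line, with Ifit1 farthest to the right.

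Within Pemt-/-, 20 of the 35 genes were highest at week 2, against 24.9% of all genes, and 21 were lowest at week 1, against 25.6%. None was highest at week 1. Those highest at week 3 were Irf7, Stat2, Oas1a, Ifit2, Mx1, Mx2, Xaf1 and Parp14, and those highest at week 4 were Irf8, Oasl2, Isg20, Samhd1, Tap1, Ifi27l2a and Trim30a. In Pemt+/+, 18 of the 35 genes were highest at week 1 and 13 at week 2, and the shares of all genes were not counted there. Each week is 1 array, so a week and its array cannot be told apart. The Pemt-/- array of week 2 also had the lowest median of all arrays (73.8, against 78.2 to 81.3), and the part of this was not tested.

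The other genes of the interferon pathway were counted from lists, to be read against the 12.6% higher and 7.51% lower among all genes tested. The interferons themselves were dim. Of 21 ligand genes, 10 had a probe set of their own, their values ranged from 1.79 to 206 over all arrays, and the 3 that passed the filter on low values (Ifnb1, Ifna1 and Ifna2) did not pass the test (limma). Ifng, the gene of interferon gamma, lay between 1.79 and 19.8 in Pemt-/- and between 3.40 and 41.6 in Pemt+/+, below the filter.

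Of the receptor chains and kinases, 3 of 8 tested were higher and none was lower, against 12.6% and 7.51% of all genes tested. They were Ifngr2, a chain of the interferon gamma receptor (1.19 ± 0.19 SE, adjusted p = 0.00491, limma), Il10rb, a chain shared by the lambda interferon and interleukin-10 receptors (1.34 ± 0.20 SE, adjusted p = 0.00388), and the kinase Jak1 (0.37 ± 0.10 SE, adjusted p = 0.0421). Ifngr2 measured 444, 595, 573 and 636 in Pemt-/- and 319, 227, 206 and 205 in Pemt+/+, a difference that its dimmer probe set did not show (0.14). The brightest probe sets of Ifnar1 and Ifnar2 differed by 0.06 and -0.21 without passing, although a dimmer Ifnar2 probe set was higher (0.72, adjusted p = 0.00692).

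Among 12 tested sensors and adaptors only 1 was higher, against 12.6% of all genes tested. It was the kinase Ikbke (0.64 ± 0.15 SE, adjusted p = 0.0243, limma), which phosphorylates Irf3 and Irf7. Of 6 tested feedback inhibitors 3 were higher, against the same 12.6%. They were the phosphatases Ptpn11 (0.49), Ptpn2 (0.47) and Ptpn6 (0.78), the last of which is abundant in blood cells. Socs3, an inhibitor of the kinases, differed by -0.73 without passing.

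Of 47 other interferon targets tested, 11 were higher, 2 were lower and 34 did not pass, with a median of 0.23. Among all genes tested, 12.6% were higher and 7.51% lower. Cxcl10, a chemokine that attracts T cells, measured 616, 662, 685 and 640.2 in Pemt-/- and 211, 385, 153 and 197 in Pemt+/+ (2.78-fold, adjusted p = 0.00246, limma), with all Pemt-/- arrays above all Pemt+/+ arrays. Lgals3bp, a secreted glycoprotein, Cmpk2, a mitochondrial nucleotide kinase, and Ifi204, a DNA sensor of myeloid cells, were higher by 0.97, 0.85 and 1.20. The lower genes were Ifi47, another immunity-related GTPase (-0.56 ± 0.13 SE, adjusted p = 0.0202), and B2m, the light chain of class I molecules (-0.30 ± 0.08 SE, adjusted p = 0.0308). The median of these 47 targets was 0.00, 0.40, 0.20 and 0.27 in weeks 1 to 4. Of them, 39 had a larger genotype difference in weeks 2 to 4 than in week 1, against 51.0% of all genes.

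Markers of several cell types also moved with the genotype, and their part in the results above was not tested. Their counts are to be read against the 12.6% higher and 7.51% lower among all genes tested. All 6 monocyte and macrophage markers tested were higher in Pemt-/-, and their summed intensity lay between 14884 and 24719 on the Pemt-/- arrays and between 6753 and 9311 on the Pemt+/+ arrays. Lyz2, the lysozyme of these cells, measured 5144, 3978, 9900.1 and 10191 in Pemt-/- and 1525, 1388, 1072 and 1265 in Pemt+/+. Ptprc, the common leukocyte antigen CD45, measured 1777, 1283, 1953 and 2181 in Pemt-/- and 571, 544, 527 and 438 in Pemt+/+ (1.74, adjusted p = 0.000775, limma). All 6 monocyte and macrophage markers were lowest in Pemt-/- at week 2. At that week 20 of the interferon genes were highest in Pemt-/-, against 24.9% of all genes. Irf8, Isg20, Mx2, Samhd1, Ifi27l2a and Trim30a were lowest there, like the markers. The share of all genes lowest at week 2 was not counted, and how the markers and the interferon genes relate was not tested.

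Neutrophil markers summed to between 820 and 1313 in Pemt-/- and between 107 and 419 in Pemt+/+, with 2 of 3 tested higher. The 5 hepatocyte markers tested, among them Alb (-0.32 ± 0.09 SE, adjusted p = 0.0442, limma), were all lower in Pemt-/-, at a median of -0.40, and 4 of the 5 were highest in Pemt-/- at week 2. Of the Kupffer cell markers 2 of 5 were higher, 4 of the 5 were highest in Pemt-/- at week 1, and their sums ran from 5745 to 16047 in Pemt-/- and from 5558 to 8831 in Pemt+/+. Of the sinusoidal endothelial markers 2 of 6 were lower and all 6 were highest in Pemt-/- at week 1, with sums from 3172 to 7711 in Pemt-/- and from 5558 to 8014 in Pemt+/+.

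No T cell, natural killer cell or B cell marker tested passed (limma), with 1, 3 and 2 genes tested. Their sums were low, at 291 to 409, 232 to 359.5 and 186 to 267 in Pemt-/-, and 251 to 386, 191 to 291 and 138 to 195 in Pemt+/+. Of the plasmacytoid dendritic cell markers, which include the interferon gene Bst2, none of 4 passed by its brightest probe set, although a dimmer Tcf4 probe set was higher (0.48, adjusted p = 0.0363), and Siglech, the defining one, measured 105, 80.1, 94.2 and 57.4 in Pemt-/- and 37.3, 77.2, 44.6 and 83.7 in Pemt+/+.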

How the data were processed

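Gene expression in whole liver of Pemt-/- and Pemt+/+ mice was taken from 8 Affymetrix arrays, grouped by the genotype and week that the labels give. Per the deposited table, the authors gave 1 linear intensity for each of 45101 probe sets, and 64 controls among them were left out. The submitters' processing notes list Affymetrix Expression Console. Its version and its way of summarising probes were not given in the sources used here. After trimming 2% at each end all arrays had the same mean, while medians ran from 73.8 to 81.3. The authors' intensities were therefore scaled but not quantile normalized. The lowest median was that of the Pemt-/- array of week 2, and those of the other arrays ran from 78.2 to 81.3. Its upper quartile was 384, against 412 to 425 on the other Pemt-/- arrays. Detection calls were not used here.

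The annotation table paired 34945 probe sets with 1 gene and 932 with several, and 9160 were unnamed here. Of all probe sets, 34741 matched the RefSeq table (GRCm38.p6), which served for names. Intensities were transformed as log2(intensity + 16), and probe sets with a mean above the 40th percentile were kept (27022 probe sets of 12949 genes).

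The genotype difference was fitted over all of them with limma 3.58.1 in R 4.3.3 (lmFit, then eBayes with the trend option), with a term for the week because the study compared the genotypes within weeks. The same fit with an added term gave the difference between weeks 2 to 4 and week 1. A fit on the group means of all 8 arrays gave the change within each genotype. Tests were two-sided with Benjamini-Hochberg adjustment over all probe sets, at an adjusted p of 0.05. SE are those of the fits, and an SD of intensity covers the 4 weeks of a genotype, so it includes change over time. All fits were first tested on simulated data with known answers.

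The 37 genes, the other gene lists and the comparisons were chosen with earlier results of these data known. Array values are given for up to 12 genes that passed, by size of the difference, for the 4 genes with the smallest p for the week difference, for the 3 highest and 3 lowest ratios of week 1, and for Irf7, Stat2 and Irf9. In the other lists, up to 4 passing genes with the smallest p are named. Alternatives were pseudocounts of 1 and 64, no filter or the 60th percentile, quantile normalization, median centring, eBayes without the trend, no week in the model, each week left out, the mean of a gene's probe sets, the methods' t-test and a 1.5-fold threshold.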

Additional observations from a re-analysis of the deposited data

Results flagged for a closer look

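In each genotype, the 4 arrays of every gene were examined for 1 array that stood apart on the log2 scale (Dixon's test of the gap to the nearest array against the whole range). Among 70 groups this marked 3, and chance marks about 1 in 20 groups. Mx1 in Pemt-/- read 221 at week 3, while the other Pemt-/- arrays lay between 102 and 109.5. Mx2 in Pemt-/- read 48.4 at week 2, below the other Pemt-/- arrays, which lay between 104 and 109. Gbp7 in Pemt+/+ read 919.9 at week 1, above the other Pemt+/+ arrays, which lay between 834 and 844. The Mx1 and Mx2 probe sets were among the dimmest of the 35 genes.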

How the results depend on the processing

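Against 13 higher genes and 1 lower gene, quantile normalization gave 10 and 0, eBayes without the trend 8 and 0, and the methods' t-test 6 and 0 after Benjamini-Hochberg adjustment (16 and 1 before it). The 6 genes of the adjusted t-test included Ddx58 and Trim30a but not Gbp3 or Ifi27l2a. With each week left out, the number of higher genes ran from 6 to 14 and that of lower genes from 0 to 1. The median week difference of 0.36 ran from 0.37 to 0.50 when week 2, 3 or 4 was left out, and 30 to 32 genes then had a larger difference in weeks 2 to 4, while 47 of the 55 probe sets tested did over all weeks. This count over probe sets and those of the direction without a week or under another normalization were added after seeing the data, as was centring on the median of all probe sets in place of those tested, which gave 13 higher genes, 1 lower and a median genotype difference of 0.40. The week numbers did not pair the arrays, since deviations of arrays of the same week correlated at 0.10, -0.02, -0.03 and 0.11 across probe sets. Without the week as a block, the unpaired fit gave 12 higher genes and 1 lower, with Tap1 lost (adjusted p = 0.0549, limma), and no week difference of the 35 genes passed, while 1 of all 27022 probe sets did. At 1.5-fold, probe sets with a high ratio numbered 16, 28, 28 and 24 in weeks 1 to 4, and those with a low ratio 8, 5, 6 and 0. After adding 16 to each intensity, low ratios numbered 1 at week 2 and 0 at week 3. Quantile normalization gave 1 low ratio at week 2, and median centring gave 2 low ratios at week 1 and 9 high ratios at week 4.

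Differences that passed no test changed sign as follows. For the genotype difference, quantile normalization gave -0.10 for Stat2, -0.12 for Oasl1 and 0.11 for Ifitm3. Median centring gave -0.031 for Ifih1, -0.088 for Irf1, -0.036 for Irf9, -0.11 for Stat2, -0.15 for Oasl1, -0.019 for Mx2 and -0.048 for Ifi35. The mean of a gene's probe sets gave -0.019 for Stat2 and -0.088 for Parp14. Leaving out 1 week at a time gave -0.15 to 0.25 for Oasl1 (below 0 without week 2 or 3), -0.038 to 0.43 for Mx2 (without week 3), -0.022 to 0.12 for Irf1 (without week 4) and -0.020 to 0.12 for Stat2 (without week 4). For the week difference, leaving out 1 week gave -0.20 to 0.11 for Irf8 (above 0 without week 2), -0.044 to 0.54 for Igtp and -0.092 to 0.12 for Iigp1 (both below 0 without week 2), -0.13 to 0.66 for Mx1 and -0.22 to 0.52 for Ifi27l2a (both without week 3) and -0.16 to 0.54 for Mx2 (without week 3 or 4). The mean of probe sets gave -0.048 for Ddx58, 0.30 for Irf8, -0.066 for Stat2 and -0.31 for Samhd1. The cause of these changes was not tested.

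The genotype difference of the 14 called genes kept its direction under every alternative run, except that Tap1 fell below the filter and had no value when a gene's probe sets were averaged. The limits are 1 array per genotype and week, 4 mice per genotype with no statement of how they were divided over the arrays, bulk tissue, and no detection calls, so that dim genes such as Mx1, Mx2 and the interferons themselves cannot be placed above or below background.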
